A study of Mus musculus with 4 samples.

Results

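The genes described here are 10 markers of mouse embryonic stem cells that lie outside the core pluripotency factors: Dppa2, Dppa3, Dppa4, Dppa5a, Tdgf1, Gdf3, Utf1, Tcl1, Fbxo15 and Zfp281. They were found by symbol among the 23420 genes of each deposited count table, and all 10 were present. RNA was sequenced from wild-type E14 cells, a feeder-free embryonic stem cell line that the labels describe as grown on gelatin with serum and leukemia inhibitory factor. The 2 groups were cells given all-trans retinoic acid (ATRA) at 1 µM for 24 h and cells at 0 h, with 2 libraries each. The titles give the ATRA concentration as micromolar and a treatment label as millimolar, and the titles were followed. The labels name dimethyl sulfoxide as vehicle without saying whether the 0 h cells received it, so ATRA and 24 h of culture cannot be told apart. They also do not say whether leukemia inhibitory factor stayed in the medium during the 24 h.

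A stem cell marker of this kind is typically a gene that is transcribed in pluripotent cells and early embryos and switched off in most somatic lineages. Not every gene of the 10 is so restricted, Zfp281 being an exception. The 10 genes do not form a single pathway. Dppa2 and Dppa4 encode nuclear proteins with a SAP domain that work as a pair on chromatin. Dppa3 (Stella) protects DNA methylation patterns in the early embryo, Utf1 encodes a chromatin-bound transcription cofactor, and Zfp281 encodes a zinc-finger factor known for its part in the exit from the naive state. Tdgf1 (Cripto) encodes a membrane-anchored co-receptor of Nodal, Gdf3 encodes a ligand of the transforming growth factor beta family, and Tcl1 encodes a coactivator of the kinase AKT. Dppa5a (Esg1) encodes a KH-domain RNA-binding protein, and Fbxo15 encodes an F-box protein whose locus served as an early reporter of reprogramming. Retinoic acid is a standard agent for driving stem cells out of pluripotency.

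Of the 10 genes, 7 had ATRA libraries that did not overlap the 0 h libraries in CPM (read counts scaled to a common library size, the usual depth-normalised unit). Utf1, Tcl1, Dppa3, Tdgf1 and Gdf3 were lower with ATRA, Dppa2 and Zfp281 were higher, and Dppa4, Dppa5a and Fbxo15 overlapped. Such non-overlap was common in these libraries, with 41.5% of all genes tested lower and 40.0% higher, so the count of 7 does not set these genes apart. In the fit across all 14256 genes tested, 1 of the 10 passed, Utf1, which fell, against 1.13% of all genes and 0.407% in the downward direction (0.723% upward). The test was the quasi-likelihood F test of edgeR at a Benjamini-Hochberg adjusted p under 0.05, with 2 libraries in each group. An unadjusted p under 0.05 was reached by 6 of the 10, and by 5941 of the 14256 genes tested, so it was common too. The fold changes of all genes followed the GC content of their transcripts, and a correction per library for that trend was therefore fitted as well. With the GC correction 7 of the 10 passed, Dppa2 rising and Utf1, Tcl1, Dppa3, Tdgf1, Gdf3 and Fbxo15 falling, against 16.2% of all genes, 8.53% upward and 7.70% downward. The median log2 fold change over the 10 was −0.52 uncorrected and −0.79 corrected, beside −0.02 and 0.01 over all genes tested. An unadjusted p under 0.05 was reached by 5447 of the genes tested after correction. By DESeq2, 1610 of the same genes were higher and 2651 lower. The counts given for gene lists below stand beside these.

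Several facts of the libraries bear on these values. Gene counts summed to 13337972 and 11086233 in ATRA replicates 1 and 2, against 31005634 and 21484812 in 0 h replicates 1 and 2. No label says that replicates came from separate cultures, so p-values cover only how far these libraries differ, and that may be technical. Spearman's rho between fold change and transcript GC content was −0.745 across 14146 genes, which share their libraries. From the GC decile with the lowest content to the one with the highest, the median gene's level in ATRA replicate 2 relative to replicate 1 ran from 0.91 to −1.28 on the log2 scale, and at 0 h the same measure ran from 0.01 to −0.29. The correction removes every GC-related difference between libraries, whatever its source. Stem cell markers were present as labelled: all 6 (Pou5f1, Sox2, Nanog, Zfp42, Esrrb and Klf4) had counts in every library and summed to 840 and 764 CPM with ATRA against 2664 and 2665 CPM at 0 h. Pou5f1 alone gave 307 and 106 CPM with ATRA against 1279 and 1251 CPM at 0 h. After GC correction 4 of the 6 passed as lower and 0 as higher. Sox2 overlapped between groups (136 and 273 CPM with ATRA, 229 and 217 CPM at 0 h). Klf4 had a corrected log2 fold change of −0.22 (edgeR adjusted p = 0.809). Markers of primitive endoderm (7 genes) summed to 55.8 and 84.6 CPM with ATRA against 26.5 and 27.1 CPM at 0 h, those of neural cells (7) to 310.0 and 422 against 400.5 and 339, those of trophoblast (7) to 35.5 and 34.8 against 43.9 and 41.5, and those of feeder fibroblasts (7) to 114 and 107 against 227 and 165. These sums are not GC-corrected, and neural and trophoblast members moved in opposite directions. Of the trophoblast markers, Cdx2 had a log2 fold change of 0.98 (2.59 corrected), against −1.31 for Eomes and −2.71 for Ascl2. The feeder sum was lower mainly through Col1a1, whose log2 fold change was −1.86 uncorrected and −0.14 corrected. The feeder markers Col1a2, Col3a1, Pdgfrb and Postn overlapped between groups, while Thy1 and Twist2 were lower without overlap (log2 fold changes −1.83 and −0.98, −0.76 and −0.56 corrected). After GC correction 1 of the 7 passed as higher, Pdgfrb (1.04, edgeR adjusted p = 0.0288), and 0 as lower. Of the neural markers, the early transcription factor gene Sox1 rose (23.8 and 30.7 CPM with ATRA, against 1.60 and 1.56 CPM at 0 h, edgeR adjusted p = 0.0196) and the neuronal tubulin gene Tubb3 fell (20.0 and 9.80 CPM with ATRA, against 113 and 95.9 CPM at 0 h, 0.0498), both also after GC correction, with which Pax6 rose as well. Olig2 was at 0 in ATRA replicate 2, Neurog2 in both 0 h libraries and Elf5 in 0 h replicate 2, and the other markers had at least 1 count in every library. In bulk RNA, fewer cells expressing a gene and less RNA per cell cannot be told apart, and the part of other cell types in the values below was not tested.

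The upstream promoter sequences shown are those of Tdgf1, Utf1, Tcl1 and Zfp281, the 4 of the 10 genes for which an entry was taken from the RefSeq promoter table (GRCm38.p6). None was taken for Dppa2, Dppa3, Dppa4, Dppa5a, Gdf3 and Fbxo15, and whether the table holds an entry for Fbxo15 was not tested. They are shown because 3 of these genes (Utf1, Tcl1 and Tdgf1) fell after GC correction and Zfp281 did not pass. Each is the 250 bases before RefSeq's start site (for Utf1 and Tcl1 this lies partly inside the longer gene that GENCODE annotates), 5′ to 3′ on the gene's own strand, with capitals marking every GC box (GGGCGG or its complement CCGCCC, the core that Sp and Kruppel-like factors recognise).
Utf1, plus strand, chr7:139943606-139943855: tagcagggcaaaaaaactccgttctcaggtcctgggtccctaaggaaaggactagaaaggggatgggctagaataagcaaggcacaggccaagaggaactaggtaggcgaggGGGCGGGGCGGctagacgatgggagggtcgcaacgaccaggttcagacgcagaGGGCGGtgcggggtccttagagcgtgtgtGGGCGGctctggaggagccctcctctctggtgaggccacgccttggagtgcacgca
Tcl1, minus strand, chr12:105222738-105222987: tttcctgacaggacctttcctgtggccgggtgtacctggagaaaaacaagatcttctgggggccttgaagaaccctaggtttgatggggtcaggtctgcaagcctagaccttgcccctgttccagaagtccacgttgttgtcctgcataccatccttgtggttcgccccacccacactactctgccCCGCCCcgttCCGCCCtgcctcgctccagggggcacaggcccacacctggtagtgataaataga
Tdgf1, minus strand, chr9:110946159-110946408: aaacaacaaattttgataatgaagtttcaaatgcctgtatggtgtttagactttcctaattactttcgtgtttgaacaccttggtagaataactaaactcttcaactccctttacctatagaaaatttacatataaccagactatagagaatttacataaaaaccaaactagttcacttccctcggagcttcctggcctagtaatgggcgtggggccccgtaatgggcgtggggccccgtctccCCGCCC
Zfp281, plus strand, chr1:136624651-136624900: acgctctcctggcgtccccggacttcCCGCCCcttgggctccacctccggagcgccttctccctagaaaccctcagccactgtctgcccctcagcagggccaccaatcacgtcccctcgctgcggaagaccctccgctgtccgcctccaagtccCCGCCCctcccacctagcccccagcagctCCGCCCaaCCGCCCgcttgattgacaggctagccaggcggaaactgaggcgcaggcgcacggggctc
The GC box occurred 4 times before Utf1 (a pair of them sharing a base), 2 times before Tcl1, 1 time before Tdgf1 and 4 times before Zfp281, and 32.7% of the 32851 promoter windows in the table held at least 1. The windows before Utf1, Tcl1 and Zfp281 had a GC content of 61.6%, 57.6% and 69.6%, above the median of 52.4%, and that before Tdgf1 had 42.0%, with 15.9% of windows lower. An octamer (ATGCAAAT), the site type of POU factors such as Oct4, was searched on both strands and is not in these 4 windows, and 1.60% of all windows held it. A nuclear receptor half-site (AGGTCA, both strands) is not in them either, and 14.02% of all windows held it. These are letter matches in a short window and say nothing of a factor's binding.

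**Figure D1:**
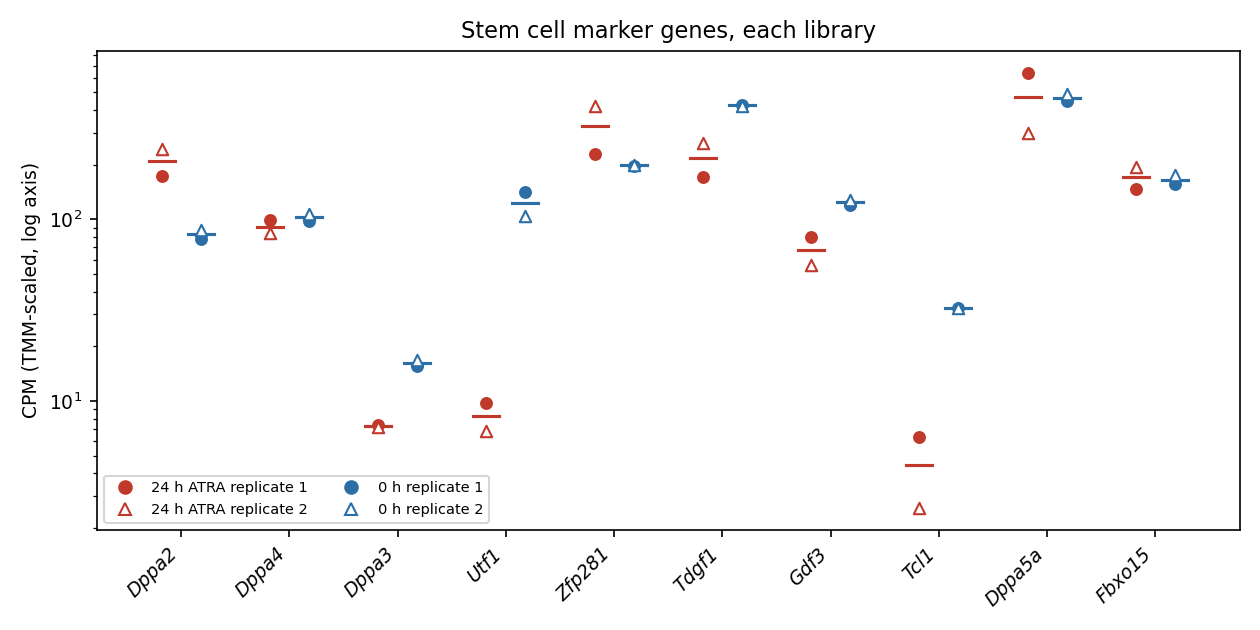
CPM of each marker gene (log axis) in the 2 libraries after 24 h of ATRA (red, left) and the 2 at 0 h (blue, right); circles are replicate 1, triangles replicate 2 and bars the group means. Utf1 and Tcl1 show the widest gaps between groups (8.28 against 123 CPM and 4.47 against 32.5 CPM). Dppa5a has the widest gap between the ATRA replicates in absolute CPM (642 and 299 CPM), and Tcl1 the widest on the log axis.

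Among the chromatin genes, Dppa2 and Dppa4 parted. The genes lie side by side on the plus strand of chromosome 16 (Dppa4 from 48283733 to 48294237 and Dppa2 from 48303908 to 48319723, GENCODE M21, GRCm38), with 9.67 kb between them. Dppa2 had 174 and 243 CPM in the ATRA libraries, against 78.0 and 87.6 CPM at 0 h. Both ATRA libraries were above both 0 h libraries, with means of 209 ± 48.7 CPM and 82.8 ± 6.79 CPM (SD, n = 2 each). The uncorrected fit gave a log2 fold change of 1.33 ± 0.29 (SE; edgeR adjusted p = 0.0651), and the corrected fit 0.58 ± 0.11 (0.0323). Dppa2 passed under 9 of 16 alternative analyses, always as higher. Those 9 include every fit with an ATRA library left out. Such a fit takes the lone ATRA library to vary like the 0 h libraries. Its calls therefore do not cover the spread between ATRA libraries. Dppa4 had 98.7 and 83.6 CPM with ATRA, against 97.7 and 107 CPM at 0 h, so the groups overlapped. Its log2 fold change was −0.17 ± 0.26 (edgeR adjusted p = 0.625), and −0.29 ± 0.14 (0.188) after correction. Without ATRA replicate 1 it was −0.31, and −0.44 corrected.

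The raw count of Dppa4 per count of Dppa2, a ratio within a library that no scaling touches, was 0.567 and 0.344 in the ATRA libraries, against 1.25 and 1.23 at 0 h. It stood below 1 in both ATRA libraries and above 1 in both 0 h libraries. The transcripts differ by 5.39 percentage points of GC content, and with corrected values the ratios were 0.579 and 0.513 with ATRA against 1.01 and 0.988 at 0 h. With 2 libraries a group, an exact two-sided permutation test of such a ratio cannot give a p below 0.333. Both genes have processed pseudogenes that match at least 200 bases of their transcript at 95% identity or more, 2 for each, and how reads with several matches were counted is not given in the sources used here.

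Fbxo15 and Zfp281 give ratios to Dppa2 that depend little on GC content, since the 3 transcripts lie within 1 percentage point of each other (44.1%, 43.1% and 43.6%). Fbxo15 per Dppa2 was 0.845 and 0.801 with ATRA, against 2.00 and 1.99 at 0 h. The ratio was nearly the same in the replicates of each group, and the ATRA ratio was 0.412 times that at 0 h (geometric means). Zfp281 per Dppa2 was 1.32 and 1.73 with ATRA, against 2.52 and 2.28 at 0 h, again without overlap. Dppa2 was thus higher relative to Dppa4, Fbxo15 and Zfp281 in both ATRA libraries than in both 0 h libraries. These 3 ratios share Dppa2 and are not separate observations. How often the ratios of other gene pairs separate the groups was not tested.

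**Figure D2:**
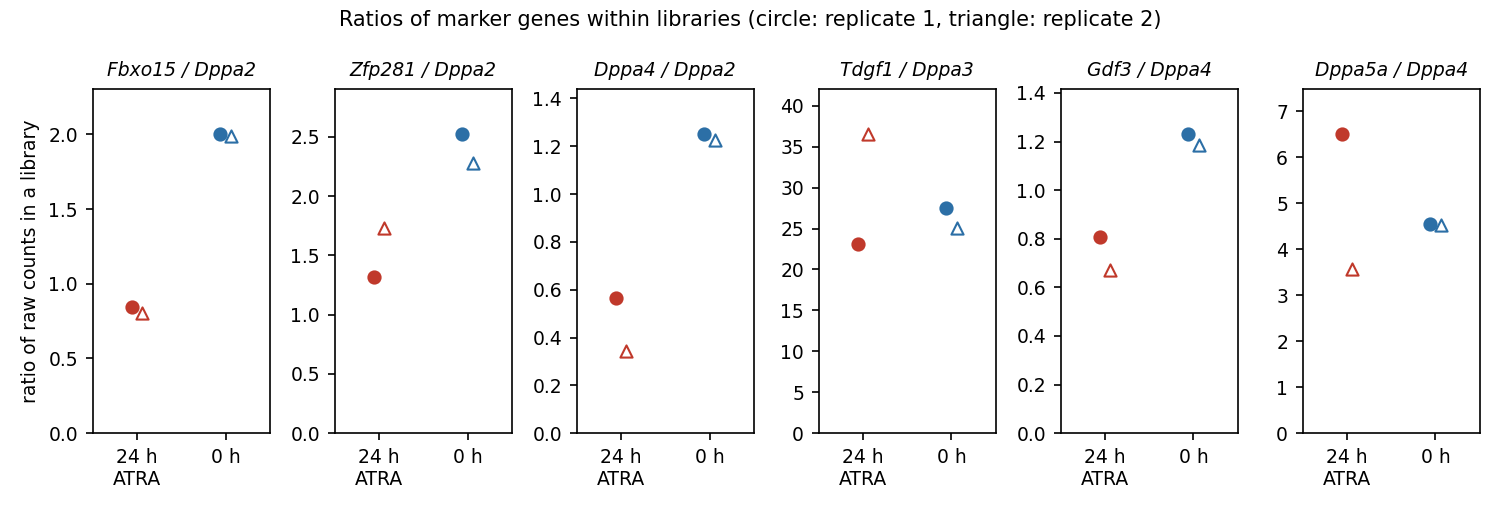
Ratio of raw counts of marker gene pairs in each library, 24 h ATRA (red, left) and 0 h (blue, right); each panel has its own vertical axis from 0. The ratios to Dppa2 separate the groups (Fbxo15 per Dppa2 at 0.845 and 0.801 against 2.00 and 1.99), while Tdgf1 per Dppa3 and Dppa5a per Dppa4 overlap.

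Genes of the 2-cell stage, which Dppa2 and Dppa4 are known to switch on in the rare stem cells that resemble the 2-cell embryo, were followed as a list of 17 symbols, 16 of them in the tables and tested. Of these, Zscan4c and Zscan4f rose and 0 fell, and 9 rose after GC correction, against 0.723% and 8.53% of all genes higher. The median log2 fold changes over the 16 were 1.65 and 1.41. The 9 came from the Zscan4 and Usp17l families alone: Zscan4a to Zscan4f, and Usp17lb, Usp17ld and Usp17le. No other member of the list passed in either fit. The calls were lost, to 0 of 16, without either 0 h library in both fits and, uncorrected, in edgeR's legacy fit. Zscan4c, of the telomere-associated Zscan4 family, had 94.5 and 146 CPM with ATRA, against 21.9 and 26.7 CPM at 0 h, and Zscan4f had 82.3 and 136 CPM against 21.0 and 22.0 CPM. Both were higher in both ATRA libraries, with log2 fold changes of 2.31 and 2.34 (edgeR adjusted p = 0.0472 and 0.0487), and 1.46 and 1.63 after correction. These genes are near-identical copies of each other, so the split of reads among them is uncertain. Dux, the 2-cell transcription factor gene, was at 0.636 and 0.309 CPM with ATRA (9 and 3 counts), against 0.627 and 0.267 CPM at 0 h (20 and 6 counts). It was thus near the floor of 3 counts, and was singled out after its values were seen.

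Dppa3 lies on chromosome 6 from 122626410 to 122630272, plus strand. It had 7.42 and 7.22 CPM with ATRA, from 105 and 70 counts, against 15.5 and 16.8 CPM at 0 h. The ATRA libraries were close together and both were below the 0 h libraries, with means of 7.32 ± 0.143 and 16.2 ± 0.881 CPM (SD, n = 2 each). The exact 95% counting intervals, 6.07 to 8.98 and 5.63 to 9.12 CPM for the ATRA libraries, lie below those of the 0 h libraries, which begin at 14.2 and 15.1 CPM. The log2 fold change of −1.14 ± 0.32 did not pass (edgeR adjusted p = 0.0747), and the corrected one of −1.69 ± 0.23 did (0.0183). Within its GC decile, 2.19% of 1414 genes had a lower uncorrected fold change. One transcribed pseudogene, Dppa3-ps, matches 451 bases at 98.2% identity.

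Dppa3 shares its stretch of chromosome 6 with Gdf3, 16.3 kb away, and with Nanog, 77.2 kb away. Nanog had 183 and 170 CPM with ATRA, against 263 and 299 CPM at 0 h, and was at −0.67 on the log2 scale uncorrected (edgeR adjusted p = 0.108) and at −1.16 corrected (0.0252). Apobec1, the gene of an RNA-editing cytidine deaminase 2.96 kb from Gdf3, had 12.7 and 14.2 CPM with ATRA, against 12.04 and 14.48 CPM at 0 h. Slc2a3, a glucose transporter gene 97.5 kb from Dppa3, had 1891 and 1456 CPM with ATRA, against 1465 and 1447 CPM at 0 h. Neither Apobec1 nor Slc2a3 passed in either fit, with log2 fold changes of 0.02 and 0.20 (−0.39 and 0.13 corrected). After correction, then, Dppa3, Nanog and Gdf3 fell and these 2 neighbours did not pass.

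The enzymes and readers of DNA methylation with which Dppa3 acts were a list of 9 genes, all tested. Dnmt3b, a de novo methyltransferase gene, was the member that fell (142 and 148 CPM with ATRA, against 654 and 600 CPM at 0 h), and 0 rose; without 0 h replicate 1, 0 of the list passed. After correction 2 fell and 1 rose, and the list's median log2 fold change was −0.56 uncorrected and −0.08 corrected. Uhrf1, the methylation reader that Dppa3 protein binds, had 185 and 160 CPM with ATRA, against 284 and 245 CPM at 0 h, with log2 fold changes of −0.62 and 0.12 (edgeR adjusted p = 0.129 and 0.649), and was singled out after its values were seen. Among 9 primordial germ cell genes, a cell type that Dppa3 also marks, 0 passed uncorrected with edgeR (5 at an unadjusted p under 0.05, and 3 higher and 1 lower by DESeq2), and 2 rose and 2 fell after correction. The most abundant of them, the receptor gene Kit, had 120 and 115 CPM with ATRA, against 66.5 and 75.9 CPM at 0 h.

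Utf1, on chromosome 7 from 139943789 to 139945112, plus strand, had the lowest uncorrected fold change of the 10 genes. It had 9.75 and 6.81 CPM with ATRA, from 138 and 66 counts, against 141 and 105 CPM at 0 h. The means were 8.28 ± 2.08 and 123 ± 25.9 CPM (SD, n = 2 each), a level 14.9-fold lower with ATRA. On the log2 scale the fold change was −3.88 ± 0.36 (edgeR adjusted p = 0.0222). Its transcript has a GC content of 63.5%, in the decile where the median gene was at −1.72, and after GC correction its value was −1.74 ± 0.28 (edgeR adjusted p = 0.0239). The corrected levels were 12.7 and 22.8 CPM with ATRA, against 56.9 and 58.1 CPM at 0 h, which also turns round the order of the ATRA libraries. Its call held under 14 of 16 alternatives. Those 14 include every fit with an ATRA library left out, whose calls do not cover the spread between ATRA libraries. The call was lost when the GC correction was combined with leaving out 0 h replicate 1 or 2 (−1.77 and −1.74). Kndc1, the gene 2.25 kb away, had 1.70 and 1.13 CPM with ATRA, against 5.05 and 4.45 CPM at 0 h, and did not pass (log2 fold changes −1.72 and −0.43, edgeR adjusted p = 0.0665 and 0.362).

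Zfp281, on chromosome 1 from 136624901 to 136630053, plus strand, had 230 and 420 CPM with ATRA, against 197 and 200 CPM at 0 h. Both ATRA libraries were above both 0 h libraries, replicate 1 by little and replicate 2 by a wide margin. The log2 fold change was 0.71 ± 0.35 (edgeR adjusted p = 0.170). Its GC content of 43.1% is at the low end of the 10 genes, and the corrected value was −0.12 ± 0.11 (0.465), from 220 and 257 CPM with ATRA against 259 and 259 CPM at 0 h. Without ATRA replicate 1 the uncorrected value was 1.07, and without ATRA replicate 2 the corrected value was −0.23. Calls from such fits do not cover the spread between ATRA libraries. Of 13 genes of the NuRD remodelling complex, which Zfp281 recruits, and its relatives, 0 passed uncorrected with edgeR (4 at an unadjusted p under 0.05, and 1 higher and 3 lower by DESeq2) and 1 fell after correction. The member with the highest mean over all 4 libraries, the histone-binding subunit gene Rbbp4, had 748 and 1145 CPM with ATRA, against 628 and 637 CPM at 0 h.

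**Figure D3:**
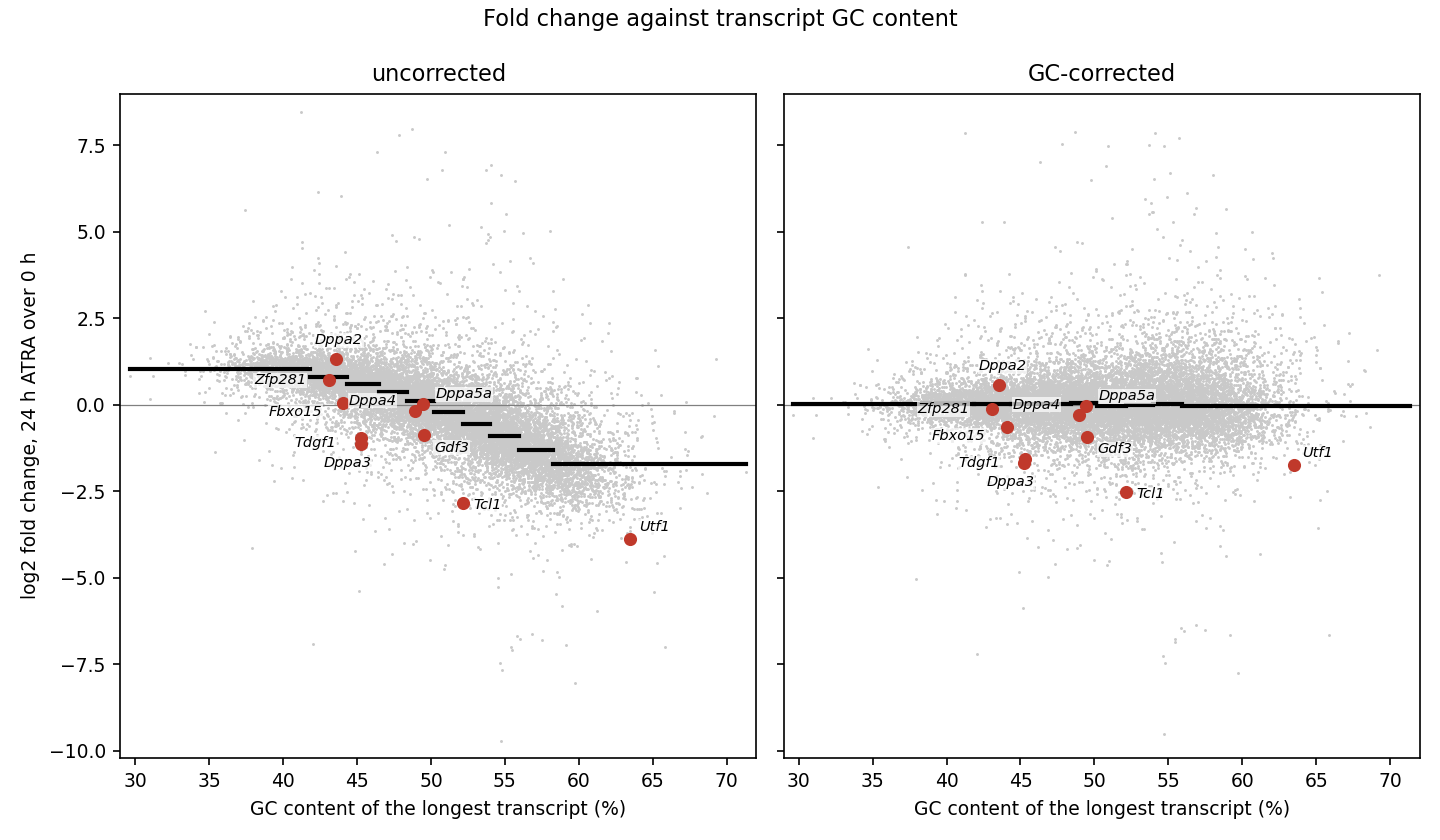
Log2 fold change, 24 h ATRA over 0 h, against GC content of the longest transcript for all genes tested (grey), with the median of each GC decile as a black line and the marker genes in red, uncorrected on the left and GC-corrected on the right. Uncorrected, the medians run from 1.03 in the lowest decile to −1.72 in the highest, and Utf1 moves from −3.88 to −1.74 with the correction.

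Among the signalling genes, Tdgf1 and Gdf3 were both lower with ATRA. Tdgf1, on chromosome 9 from 110939603 to 110946158, minus strand, had 172 and 264 CPM with ATRA, against 427 and 421 CPM at 0 h. Both ATRA libraries were below both 0 h libraries, with means of 218 ± 65.3 and 424 ± 4.46 CPM (SD, n = 2 each). Its log2 fold change was −0.96 ± 0.31 (edgeR adjusted p = 0.0856). After GC correction it was −1.56 ± 0.10 (edgeR adjusted p = 0.00466), the smallest adjusted p of the 10 genes, from 165 and 185 CPM with ATRA against 524 and 507 CPM at 0 h. The correction brought the ATRA libraries closer together for this gene, and the group gap became wider. A processed pseudogene, Tdgf1-ps1, matches 512 bases at 98.8% identity. The leucine-rich repeat gene Lrrc2, 5.39 kb from Tdgf1, had 9.26 and 10.6 CPM with ATRA, against 15.7 and 14.2 CPM at 0 h, and was at −0.59 on the log2 scale uncorrected (edgeR adjusted p = 0.192) and at −1.30 corrected (0.0259).

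Gdf3, on chromosome 6 from 122605403 to 122610087, minus strand, had 79.4 and 56.1 CPM with ATRA, against 120 and 127 CPM at 0 h. The groups did not overlap, with means of 67.8 ± 16.5 and 124 ± 4.94 CPM (SD, n = 2 each). The log2 fold change was −0.87 ± 0.29 (edgeR adjusted p = 0.0900), and −0.92 ± 0.18 (0.0358) after correction, so it moved little with the correction. Gdf3 per Dppa4, a pair whose GC contents differ by 0.554 percentage points, was 0.805 and 0.671 with ATRA, against 1.23 and 1.19 at 0 h. Tdgf1 per Dppa3, a pair with practically equal GC content (45.3% each), was 23.1 and 36.6 with ATRA, against 27.5 and 25.1 at 0 h, and so the groups overlapped.

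The list of 16 Nodal and GDF pathway genes around these 2 had 13 tested members. With edgeR 0 passed uncorrected (6 at an unadjusted p under 0.05, and 2 higher and 4 lower by DESeq2), and 3 rose and 0 fell after correction, with list medians of 0.31 and 0.32. The member with the highest mean over all 4 libraries, the Nodal inhibitor gene Lefty1, had 214 and 129 CPM with ATRA, against 148 and 103 CPM at 0 h, and was at 0.45 uncorrected (edgeR adjusted p = 0.351) and at 2.13 corrected (0.0111). Nodal itself had 48.6 and 18.4 CPM with ATRA, against 75.9 and 61.7 CPM at 0 h, with log2 fold changes of −1.03 (edgeR adjusted p = 0.152) and 0.05 (0.833). Cfc1, the other co-receptor gene of the Cripto family, stayed at or below 0.445 CPM in every library and was not tested. Nodal and Cfc1 were singled out after their values were seen.

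Tcl1, on chromosome 12 from 105216750 to 105222793, minus strand, had 6.36 and 2.58 CPM with ATRA, from 90 and 25 counts, against 32.3 and 32.6 CPM at 0 h. The means were 4.47 ± 2.68 and 32.5 ± 0.150 CPM (SD, n = 2 each). The ATRA libraries differed from each other beyond counting error, with exact 95% counting intervals of 5.12 to 7.82 and 1.67 to 3.81 CPM, and both stayed far below the 0 h libraries. Its fold change on the log2 scale was −2.83 ± 0.47 uncorrected (edgeR adjusted p = 0.0578) and −2.52 ± 0.31 corrected (0.0148). It passed under 11 of 16 alternatives, always as lower, with values from −3.67 (without ATRA replicate 1) to −2.16 (GC-corrected without ATRA replicate 2). Those 11 include every fit with an ATRA library left out, whose calls do not cover the spread between ATRA libraries. Corrected, it was the lowest of the 10 genes, and 0.800% of all genes tested were lower.

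Of 12 genes of the AKT pathway and of the Tcl1 family, 7 were tested and 0 passed in either edgeR fit (6 and 5 at an unadjusted p under 0.05, and 3 higher and 1 lower by DESeq2). The neighbouring paralogs Tcl1b1 to Tcl1b5, within 61.5 kb of Tcl1, had too few counts for the test.

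Dppa5a, on chromosome 9 from 78367052 to 78368177, minus strand, was the most abundant of the 10 per transcript length. Its ATRA replicates had the widest gap of the 10 in absolute CPM. As a log2 ratio of ATRA replicate 2 to replicate 1, Tcl1 had −1.30 and Dppa5a −1.10. Dppa5a had 642 and 299 CPM with ATRA, against 445 and 487 CPM at 0 h. The 0 h libraries fell between the ATRA libraries, and the log2 fold change was 0.01 ± 0.41 (edgeR adjusted p = 0.981), or −0.05 ± 0.35 (0.936) after correction. The correction hardly moved the gap, at 629 and 291 CPM. Relative to the median gene, ATRA replicate 2 stood at −1.05 against replicate 1 on the log2 scale, while the median of its GC decile was 0.08, and 4.10% of the 1414 genes of that decile had a lower ratio. The direction of its fold change is that of the ATRA library kept: −0.66 without ATRA replicate 1 and 0.47 without ATRA replicate 2. Near-identical copies are most numerous here, with 7 other annotated genes matching at least 200 bases at 95% identity or more, among them Pigp and the pseudogenes Dppa5b and Dppa5c, and reads may be split among them. Ooep, another KH-domain gene, 7.93 kb away, had 63.0 and 50.9 CPM with ATRA, against 30.2 and 33.5 CPM at 0 h, and did not pass in either fit (log2 fold changes 0.84 and 0.42, edgeR adjusted p = 0.0901 and 0.253). Ooep was 1 of 3 tested members of a list of 7 genes around Dppa5a, not all of which encode KH-domain proteins. Of the 3, 0 passed uncorrected with edgeR (3 at an unadjusted p under 0.05, 0 by DESeq2) and 1 rose after correction. That gene was Tle6, which is not a KH-domain gene (corrected log2 fold change 2.26, edgeR adjusted p = 0.0203), and it was singled out after its values were seen.

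Fbxo15, on chromosome 18 from 84934782 to 84981473, plus strand, had 147 and 195 CPM with ATRA, against 156 and 174 CPM at 0 h. The groups overlapped, and the log2 fold change was 0.05 ± 0.28 (edgeR adjusted p = 0.902). With the GC correction the levels were 141 and 126 CPM with ATRA against 200 and 220 CPM at 0 h, no longer overlapping, and the log2 fold change was −0.65 ± 0.11 (0.0273). It therefore counts among the genes that fell with the correction alone. Its locus overlaps Timm21, a mitochondrial import gene on the opposite strand, by 5334 bases, and the strand setting of the counting is not given in the sources used here. Timm21 had 40.0 and 56.0 CPM with ATRA, against 24.4 and 24.3 CPM at 0 h (log2 fold changes 0.98 and 0.11, edgeR adjusted p = 0.0831 and 0.614). Of 7 tested genes of the SCF ubiquitin ligase, the complex that F-box proteins join, and related F-box genes, 0 passed uncorrected with edgeR (1 at an unadjusted p under 0.05, and 1 higher by DESeq2), and 1 rose and 2 fell after correction. Skp1a, the adaptor that binds F-box proteins, had 563 and 1082 CPM with ATRA, against 448 and 459 CPM at 0 h.

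**Figure D4:**
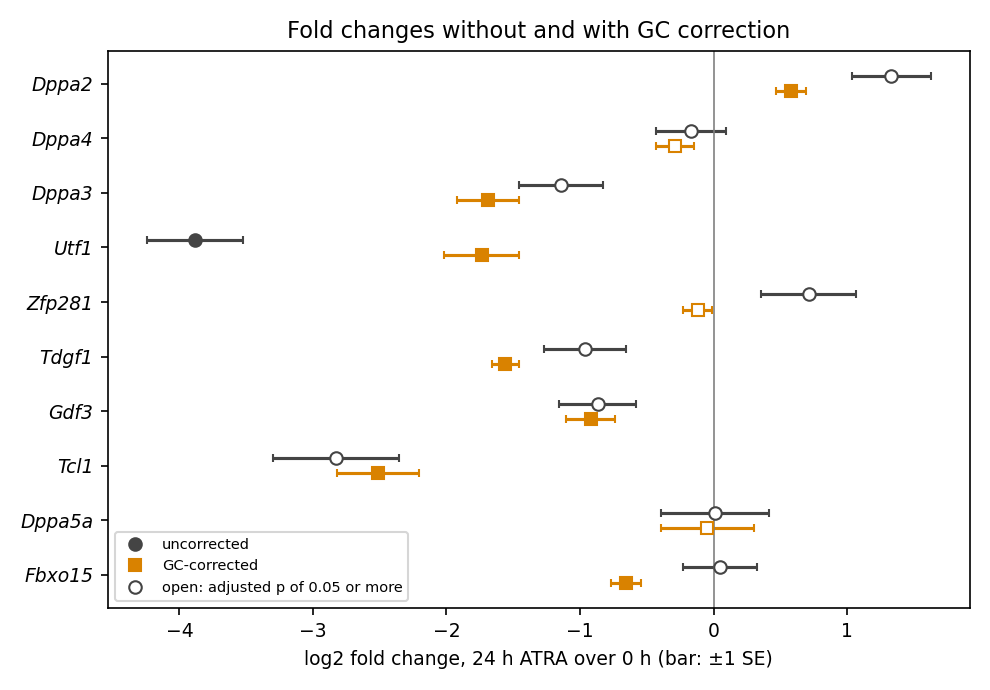
Log2 fold change, 24 h ATRA over 0 h, of each marker gene from the uncorrected fit (grey circles) and the GC-corrected fit (orange squares), with bars of 1 SE to each side; filled symbols have an edgeR adjusted p under 0.05. The filled uncorrected symbol is Utf1 (−3.88), and the corrected ones are Dppa2 (0.58) and 6 lower genes from −0.65 for Fbxo15 to −2.52 for Tcl1.

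Per length, which allows levels to be compared between genes, the order changed. The values are CPM per kilobase of the longest transcript, averaged over the 2 libraries. With ATRA the order from high to low was Dppa5a (760), Tdgf1 (113), Fbxo15 (89.5), Dppa2 (85.3), Zfp281 (65.8), Dppa4 (61.6), Gdf3 (31.9), Dppa3 (8.79), Utf1 (6.75) and Tcl1 (3.20). At 0 h it was Dppa5a (753), Tdgf1 (219), Utf1 (100.3), Fbxo15 (86.6), Dppa4 (69.3), Gdf3 (58.2), Zfp281 (40.2), Dppa2 (33.8), Tcl1 (23.2) and Dppa3 (19.4). Utf1 thus held place 9 with ATRA and place 3 at 0 h, and Dppa2 place 4 with ATRA and place 8 at 0 h. With GC-corrected levels Utf1 held place 8 with ATRA (14.5 per kilobase) and place 7 at 0 h (46.9), so its change of place rests on the uncorrected values, and Dppa2 again held place 4 with ATRA (65.2) and place 8 at 0 h (43.6). The ranges of neighbours in the ATRA order overlapped from Tdgf1 through Fbxo15, Dppa2 and Zfp281 to Dppa4. Within each ATRA library, Tdgf1, Fbxo15 and Dppa2 kept this order and stood above Zfp281 and Dppa4. Zfp281 and Dppa4 changed places (46.5 and 66.7 per kilobase in ATRA replicate 1, 85.2 and 56.6 in replicate 2). At 0 h the overlapping neighbours were Utf1 and Fbxo15, which changed places between the libraries. With ATRA, Utf1 stood above 50.5% of genes with a known length, against 95.3% at 0 h, and Tcl1 above 36.0% against 75.4%. The summed level of the 10 genes was 1566 and 1577 CPM with ATRA, against 1710 and 1758 CPM at 0 h, with Dppa5a making up 41.0% and 18.9% with ATRA against 26.0% and 27.7% at 0 h.

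Other stem cell genes were followed in a pair of lists. Of 12 further genes shared by naive and primed stem cells, Tdh fell and 0 rose, and 3 fell and 2 rose after GC correction, with list medians of −0.31 and −0.12. Tdh, the threonine dehydrogenase gene, had 25.9 and 13.7 CPM with ATRA, against 364 and 354 CPM at 0 h. Of a list of 12 genes, mostly naive pluripotency factors, Zfp42, Klf2 and Esrrb fell and 0 rose. After correction 8 fell and 1 rose, and the list medians were −1.49 and −1.15. The list also held Tcf3, which is not such a factor under this symbol and passed in neither fit. Klf2 (20.9 and 23.3 CPM with ATRA, against 101 and 86.1 CPM at 0 h) lost its call with the correction (0.13, edgeR adjusted p = 0.859). Esrrb, a nuclear receptor gene, had 54.6 and 32.6 CPM with ATRA, against 261 and 280 CPM at 0 h, and Zfp42 (Rex1) had 145 and 151 CPM against 574 and 562 CPM. Both passed in both fits. Without 0 h replicate 1 or 2, the naive list had 1 and 2 lower calls uncorrected and 1 each corrected, and edgeR's legacy fit gave it 0 uncorrected.

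The calls rest on few libraries. With the GC correction and either 0 h library left out, edgeR called 0 of the 10 genes (7 at an unadjusted p under 0.05 in each case), and 35 and 25 of all genes without 0 h replicate 1 and 2; DESeq2 was not run with a library left out. With either ATRA library left out, the corrected fit called 9 of the 10, beside 6700 and 4953 of all genes without ATRA replicate 1 and 2. DESeq2 on all 4 libraries called 5 of the 10, Dppa2 as higher and Utf1, Tcl1, Tdgf1 and Dppa3 as lower. It called 1610 as higher and 2651 as lower among the 14256 genes tested.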

How the data were processed

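Total RNA of 4 mouse embryonic stem cell libraries was sequenced, and the authors deposited raw counts per gene for each library. Per the submitters' processing notes, the tools were HTSeq 0.6.0, TopHat2 2.0.7, Cuffdiff 2.0.2 and Cufflinks 2.0.2, on mm10, and no source used here gives their settings. Summary rows of the counting were left out, the largest being reads in no gene (64.7% and 66.2% with ATRA, 63.4% and 63.9% at 0 h). Genes were filtered with filterByExpr and tested with edgeR 4.0.16 (TMM scaling, robust quasi-likelihood fit, R 4.3.3), with Benjamini-Hochberg adjustment over all 14256 genes tested. CPM use TMM-scaled library sizes. The GC correction fits, per library, a robust spline with 5 degrees of freedom (MASS) of log2 CPM deviation on GC content of the longest GENCODE M21 transcript (GRCm38), and enters as offsets. Of 23420 symbols, 21777 matched that annotation directly, 1278 by an older symbol and 365 not at all. Counting intervals are exact Poisson intervals and cover counting error only, as does the floor of 3 counts, 0.225 and 0.271 CPM with ATRA and 0.0968 and 0.140 CPM at 0 h. Unlike the other CPM, these floor values use library sizes without TMM scaling. On simulated counts with a GC trend, the corrected fit of this comparison (13029 genes) called 56% of 2-fold and 96% of 4-fold changes, and 25 of its 177 calls were unchanged genes. The simulated trend was linear and weaker than that of the data, and far fewer genes were changed than the corrected fit called. These rates are therefore not those of the data. DESeq2 1.42.0, its size factors, no filter, a replicate block, the GC correction and leaving out each library were alternatives, and edgeR's legacy quasi-likelihood fit was added after seeing the data. All 10 genes are named; from each list, up to 3 called members a direction with the smallest p or else the most abundant member are named, as may be genes within 100 kb of a marker gene, and others are marked as singled out. The named member of the AKT list is not reported here. Genes and lists were chosen with earlier results of these data known.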

Additional observations from a re-analysis of the deposited data

How the results depend on the processing

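Across the 16 alternatives, the 10 marker genes gave 160 log2 fold changes, of which 83 kept their direction and side of the threshold, 19 changed sign but were not called (8 of Dppa5a, 6 of Zfp281 and 5 of Fbxo15), 48 passed where the reported value had not, 2 no longer passed (Utf1, above) and 8 turned direction as called values. These 8 were Dppa5a without ATRA replicate 1 (−0.66, and −0.70 with GC correction, beside 0.47 without ATRA replicate 2), Zfp281 with GC correction without ATRA replicate 2 (−0.23), and Fbxo15 with GC correction (−0.65), with the replicate block added (−0.65), in the legacy fit (−0.65) and without ATRA replicate 1 or 2 (−0.73 and −0.56). Genes called numbered 161 (64.0% higher), 603 with DESeq2 size factors (38.5% higher), 4268 with DESeq2, 2313 with GC correction, 86 in edgeR's legacy fit and 2377 in that fit with GC correction, and 125 to 10289 with a library left out (25 to 6700 with GC correction: 35 and 25 without 0 h replicates 1 and 2, 6700 and 4953 without ATRA replicates 1 and 2). Marker genes called numbered 1, then 2 with DESeq2 size factors, 5 with DESeq2, 7 with GC correction and 7 with GC correction in the legacy fit, and 0 to 9 with a library left out. Members of the 10 lists called numbered 7, then 14 with DESeq2 size factors, 45 with DESeq2, 38 with GC correction, 2 in the legacy fit and 38 in that fit with GC correction, and 3 to 87 with a library left out (2, 2, 69 and 68 in the same order with GC correction). The median log2 fold change of the marker genes was −0.52, −0.79 with GC correction and −0.78 with GC correction in the legacy fit, and −0.68 to −0.39 with a library left out (−0.84, −0.75, −0.96 and −0.62 in the same order with GC correction). A lone library of a group was taken to vary like the other group. The replicate numbers were not shown to pair the samples (correlation of deviations 0.18, and −0.05 after GC correction, from 2 pairs); with the replicate block, 4401 genes, 3 marker genes and 42 list members were called, and with GC correction and the replicate block 2637, 7 and 38, with a median of −0.80. The cause of these shifts was not tested. Depth limits Tcl1 most, at 25 counts in ATRA replicate 2.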

Other observations

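Within their GC deciles, Tcl1, Utf1, Dppa3 and Tdgf1 had uncorrected log2 fold changes that 0.919%, 1.34%, 2.19% and 2.97% of the genes were below, and Dppa2 had one that 87.4% were below. Adam8, a metalloprotease gene 33.8 kb from Utf1, had 1.77 and 0.722 CPM with ATRA, against 6.27 and 7.17 CPM at 0 h, with log2 fold changes of −2.36 uncorrected and −1.50 corrected (edgeR adjusted p = 0.0621 and 0.0345). Gdf3 per Tdgf1, the ligand against the co-receptor, was 0.463 and 0.213 in the ATRA libraries, against 0.282 and 0.302 at 0 h, so that the ATRA libraries lay on either side of the 0 h libraries. The pair differs by 4.22 percentage points of GC content, and with corrected values the ratios were 0.471 and 0.298 with ATRA, against 0.235 and 0.253 at 0 h, without overlap.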
